A study of Homo sapiens with 2 samples.

Results

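The 543 peaks described here are those of a CREB chromatin immunoprecipitation (ChIP-seq) peak list whose summits lay between 26 and 29 Mb of chromosome 20 (genome build hg38), around the centromere. They were chosen by position alone, taking the summit as the peak start plus its summit offset, and made up 92.2% of the 589 peaks of chromosome 20 (95% exact binomial interval 89.7 to 94.2). They were 10.3% (9.47 to 11.1) of the 5285 peaks of the whole list. The cells were NGP, an established human neuroblastoma line, which per the labels' protocols was grown in RPMI-1640 with 20% serum and harvested at 80 to 90% confluency, with no other treatment or genotype named. The series comprised 1 ChIP library and 1 input library of the same line, made from 4 ng of DNA each and selected for 250 to 450 bp. Every value comes from peaks of the 1 ChIP library, so none has an error between cultures, and no test between samples could be made. Reads without molecular identifiers cannot be taken as independent molecules, and intervals cover counting error only. No expression was measured, so the identity of the cells was not checked.

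CREB is a transcription factor that is activated by phosphorylation downstream of cAMP and calcium signals and binds the cAMP response element in the promoters of many genes. Human centromeres are built of alpha satellite, a DNA repeat whose monomers lie head to tail and are grouped into higher-order repeats that recur, nearly identical, over megabases. Such arrays carry the centromeric nucleosomes and hold few or no genes. In hg38 the arrays are represented by modelled sequence, in which the order of the repeats is not that of any real chromosome. Where reads fit many copies equally well, the copy to which a read is assigned depends on the aligner's settings, not given in the sources used here. Positions within the interval are therefore positions in the assembly. No sequence of the peaks was used here, so whether each lies in alpha satellite was not tested.

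The peaks formed 1 dense stretch, thinner at its left end. Of the 543 summits, 541 (99.6%) lay between positions 26450311 and 28486538, a length of 2.04 Mb. The other two stood alone. The first summit, at 26155870, was 294.4 kb from the stretch, and the last, at 28842124, was 355.6 kb from it on the other side. The peak around the first spanned 26155794 to 26155970 with a fold enrichment of 4.82 and a −log10 q of 2.87. It had 5 fragments (95% exact Poisson interval 1.62 to 11.7), counted here and below at the summit only. The peak around the last spanned 28842042 to 28842219 with a fold of 5.62, a −log10 q of 4.11 and 6 fragments (2.20 to 13.1). Fold enrichment is the authors' value at the summit over the background that the peak caller expected there, and q is the p-value adjusted by the caller. The nearest summits outside the interval were at 23531746 (fold 3.80) and 29074245 (fold 4.63).

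Within the stretch the density was high and fairly even. Counted in windows of 100 kb from 26 Mb, 23 of 30 windows held a member and 7 held none. The windows with 20 or more members were 17 in a row, from 26.7 to 28.4 Mb. They held 486 members (89.5%), and their counts ran from 24 to 38 with a median of 28. The fullest windows were those starting at 27.5 and 27.7 Mb, with 38 members each. At the left end the counts rose from 11 and 8 in the windows starting at 26.4 and 26.5 Mb to 19 at 26.6 Mb and 28 at 26.7 Mb. At the right end they went from 25 at 28.3 Mb to 17 at 28.4 Mb and 0 at 28.5 Mb. Elsewhere on chromosome 20 no window of 100 kb held more than 2 peaks. In the whole list 41 such windows held 20 or more peaks, and 17 of these were in this stretch. In 170 windows of 10 kb over the same 26.7 to 28.4 Mb, the median was 3 members, the highest 7, and 7 windows held none. Peaks covered 8.92% of the stretch, from 7.07% to 13.8% in the 17 windows.

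**Figure D1:**
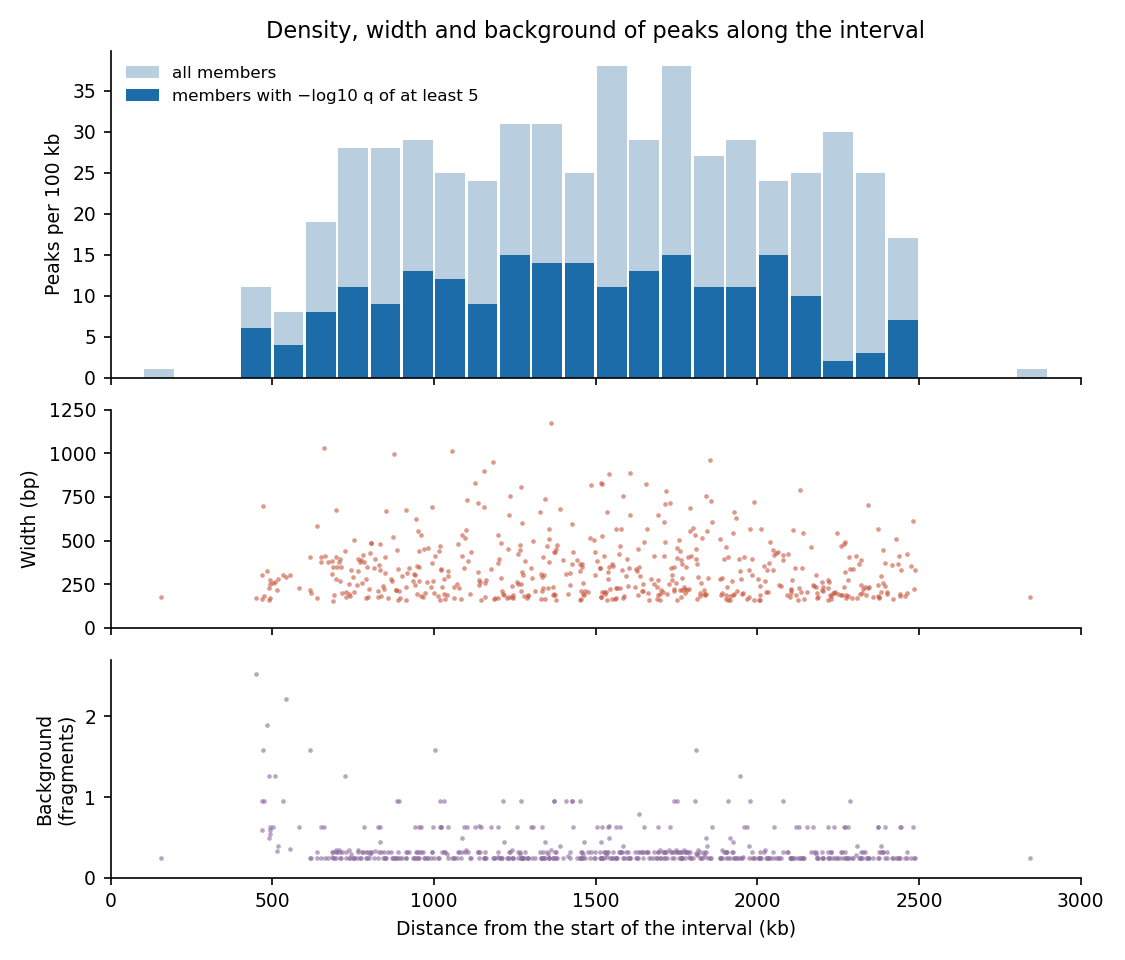
Members along the interval, plotted as distance from its start (kb): peaks per 100 kb (top, dark bars those with a −log10 q of at least 5), width of each peak in bp (middle) and expected background in fragments at each summit (bottom). The count stays between 24 and 38 per 100 kb over the 17 central windows, the dark bars drop to 2 and 3 in the windows starting 2200 and 2300 kb from the start, and the first members of the stretch have raised backgrounds.

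Neighbouring summits were a few kilobases apart. The median of the 542 distances between neighbours was 2596.5 bp (quartiles 1244.25 to 4883.75), the shortest was 322 bp and 95% were below 10795 bp. Distances under 1 kb numbered 99 (18.3%), and 28 of these were under 500 bp. A further 121 (22.3%) lay between 1 and 2 kb, 192 (35.4%) between 2 and 5 kb, 92 (17.0%) between 5 and 10 kb, and 38 (7.01%) at 10 kb or more. Within the stretch the standard deviation of the distances was nearly equal to their mean (3717 against 3771 bp, a ratio of 0.986). Without the first 19 members, at the thinner left end, the ratio was 0.907. The longest distances inside the stretch were 33.1 and 27.3 kb, both at its left end, followed by 23.4 kb between summits at 27860304 and 27883702.

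**Figure D2:**
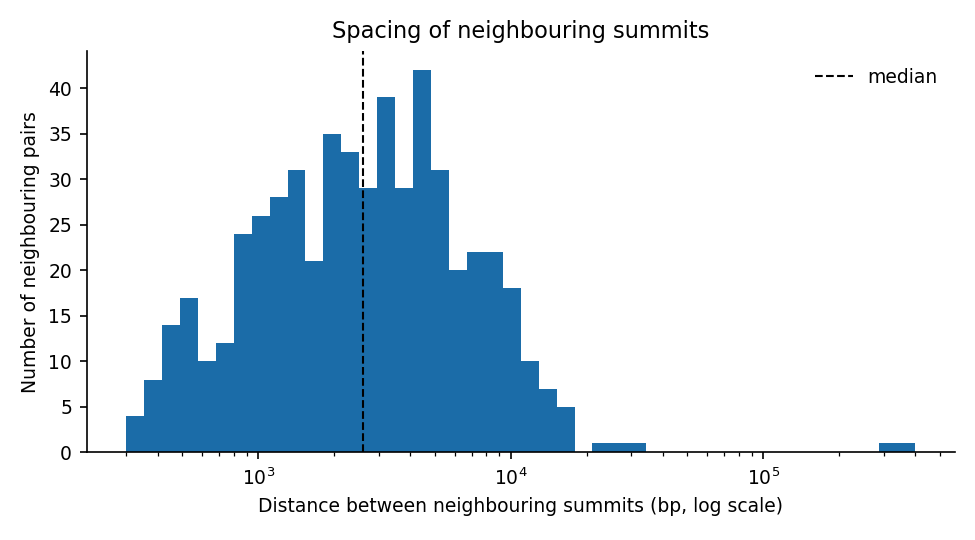
Histogram of the 542 distances between neighbouring summits (bp, log scale), with the median as a dashed line. Most distances lie between 500 bp and 10 kb around the median of 2596.5 bp, and the pair of distances near 300 kb separates the single first and last peaks from the rest.

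Breaking the series of summits wherever neighbours were more than 10 kb apart gave 39 runs, of which 6 were single peaks. The 8 runs of 20 or more members held 303 of the 543 peaks (55.8%). The longest in members had 68 peaks (12.5%) from 27679889 to 27860304, followed by 52 peaks from 26725019 to 26901947 and 41 from 27513186 to 27606424. The runs resembled each other in strength. Among the 8, the median fold ran from 5.17 to 6.42, the median width from 228.5 to 331.5 bp and the median spacing from 1485.5 to 3289 bp. The lowest median fold was that of the run of 40 peaks from 28217465 to 28346011. The runs depended on the 10 kb setting: 131 runs resulted with 5 kb and 3 with 50 kb, in the last of which the stretch was a single run.

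Distances between all summits, not only neighbours, were then counted for a repeated length. Up to 4 kb there were 527 pairs. In classes of 100 bp from 400 bp upward, the fullest was 1800 to 1899 bp with 28 pairs, and the other 35 classes held 8 to 20, with a median of 14. This class was singled out after the counts were seen. Its 28 pairs involved 56 different peaks, began in 17 windows of 100 kb between 26617735 and 28417698, and had a median distance of 1839.5 bp (quartiles 1831.75 to 1862.5). In 19 pairs the summits were direct neighbours. The class was no longer the fullest when peak midpoints took the place of summits, with 21 pairs against a highest of 23 in another class. Nor was it the fullest among peaks with a −log10 q of at least 5, where it held 3 pairs against 0 to 8. In the 480 peaks at 58 to 60 Mb of chromosome 6 the same class held 21 pairs and the fullest was 800 to 899 bp with 27.

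**Figure D3:**
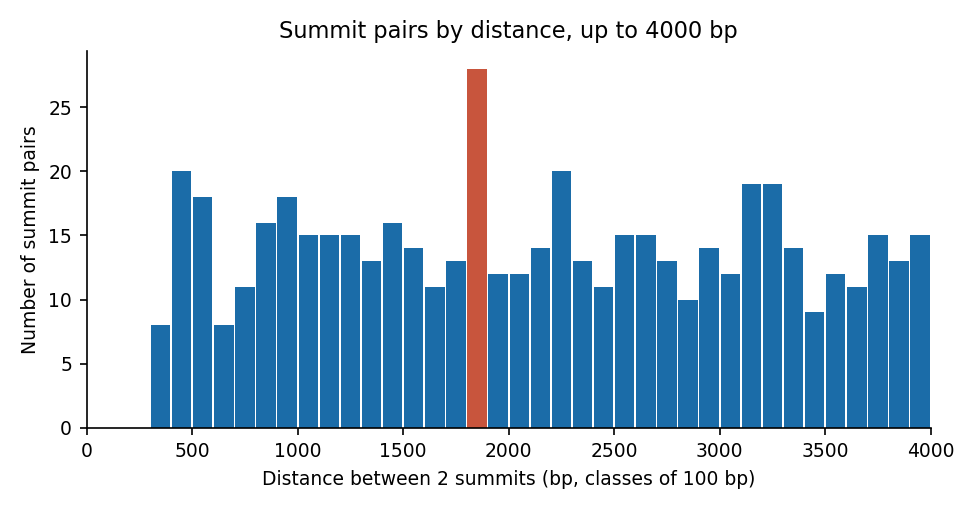
Number of summit pairs at each distance up to 4000 bp, in classes of 100 bp, with the class 1800 to 1899 bp in the second colour. It holds 28 pairs, and the other classes from 400 bp upward hold 8 to 20.

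The peaks were mostly narrow, with a tail of broad ones. The median width was 280 bp (quartiles 200 to 410, range 156 to 1176), where 156 bp was also the narrowest width in the whole list. Of the members, 137 (25.2%) were at most 200 bp wide, 81 (14.9%) at least 500 bp and 3 at least 1000 bp. The widest, 27359227 to 27360402, measured 1176 bp with a fold of 8.91 and 11 fragments. The next were 26659012 to 26660041 (1030 bp, fold 7.96), 27054600 to 27055610 (1011 bp, fold 10.4), 26873993 to 26874987 (995 bp, fold 12.03) and 27851596 to 27852559 (964 bp, fold 8.03). Wider peaks held more fragments at their summit: the median width was 205 bp at 4 to 5 fragments, 248 bp at 6 to 7, 389 bp at 8 to 9 and 425 bp at 10 to 19. Across the 543 peaks Spearman's rho of width with fragments was 0.47, a description only, since both come from the same reads. The summit lay at a median of 0.479 of the peak's width from its left edge, in the left part of 289 peaks and the right part of 251.

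Fold enrichments were modest and kept within a small range. The median fold was 5.62 (quartiles 4.90 to 6.84, range 3.80 to 13.6), and the median −log10 q was 4.11 (quartiles 2.87 to 6.08, range 1.48 to 20.2). A −log10 q of at least 5 was reached by 213 members (39.2%, 95% interval 35.1 to 43.5), against 30.3% of the whole list. In dense intervals around other centromeres the share was 41.5% on chromosome 10 (40 to 42 Mb), 32.1% on chromosome 6 (58 to 60 Mb) and 23.9% on chromosome 7 (58 to 61 Mb). A fold of 10 was reached by 15 members (2.76%), against 4.09% of the whole list.

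The strongest members were spread over the stretch. The 10 with the highest fold lay in 9 different windows of 100 kb, from 26792102 to 28040104, with folds of 11.2 to 13.6, 13 to 16 fragments and widths of 350 to 995 bp. The strongest peak spanned 27517928 to 27518453, with its summit at 27518044, a fold of 13.6, a −log10 q of 20.2 and 16 fragments (9.15 to 25.98). Its rank in the whole list was 81. The second, at 27198923 to 27199452, reached a fold of 12.9 on 16 fragments, and the third, at 27486696 to 27487514, a fold of 12.2 with 15 fragments (8.40 to 24.7). Next came 28039973 to 28040462 (fold 12.04) and 26873993 to 26874987 (fold 12.03), with 14 fragments each (7.65 to 23.5). A further 3 with 14 fragments shared a fold of 11.4, at 27573896 to 27574364, 27658591 to 27659159 and 27716462 to 27717248. The last of the 10 were at 26791914 to 26792263 and 27855025 to 27855749, with a fold of 11.2 and 13 fragments (6.92 to 22.2). The interval of the strongest peak overlapped that of a peak with the median of 7 fragments (2.81 to 14.4), which alone does not decide whether such peaks differ. Among the 10, the intervals at 13 fragments (6.92 to 22.2) and at 16 (9.15 to 25.98) overlapped widely. The order of these peaks was not tested.

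Few fragments lay at each summit, and many members had identical values. Fold and p of a peak together gave a whole number of fragments at the summit in all 543 members. The median was 7 fragments (quartiles 6 to 9, range 4 to 19), and 455 members (83.8%) had at most 9 there. The number of fragments over the whole width of a peak is not known. Low counts were not particular to the members, since the whole list had a median of 6 fragments (quartiles 5 to 9). The 543 members shared only 101 distinct pairs of fold and p, and 495 members had the same pair as another. The commonest, a fold of 5.62 with a −log10 q of 4.11, is 6 fragments over a background of 0.246 and was found in 73 members (13.4%). A fold of 4.82 (5 fragments) was found in 47 members and a fold of 6.42 (7 fragments) in 41, both over the same background. The 5 commonest pairs accounted for 217 members (39.96%).

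The expected background at the summits took few values. It stood at 0.246 fragments, the lowest in the whole list, in 243 members (44.8%, 95% interval 40.5 to 49.0). The same value was common elsewhere, in 31.3% of the whole list and 34.8% of the other peaks of chromosome 20. In 222 other members (40.9%) the background was a whole multiple of 0.316. Of these, 135 members were at 0.316, 54 at 0.632, 22 at 0.949 and 11 at higher multiples up to 2.53. The remaining 78 (14.4%) lay between. MACS2 takes as background the largest of several local estimates and a genome-wide average. The member with most fragments, 19 (11.4 to 29.7), at 26541971 to 26542260, had a background of 2.21 and hence a fold of 6.22. The next, at 27811005 to 27811456, had 18 fragments (10.7 to 28.4) over 1.58 and a fold of 7.36. Neither was among the 10 strongest by fold, whose backgrounds were 0.246 to 0.316.

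**Figure D4:**
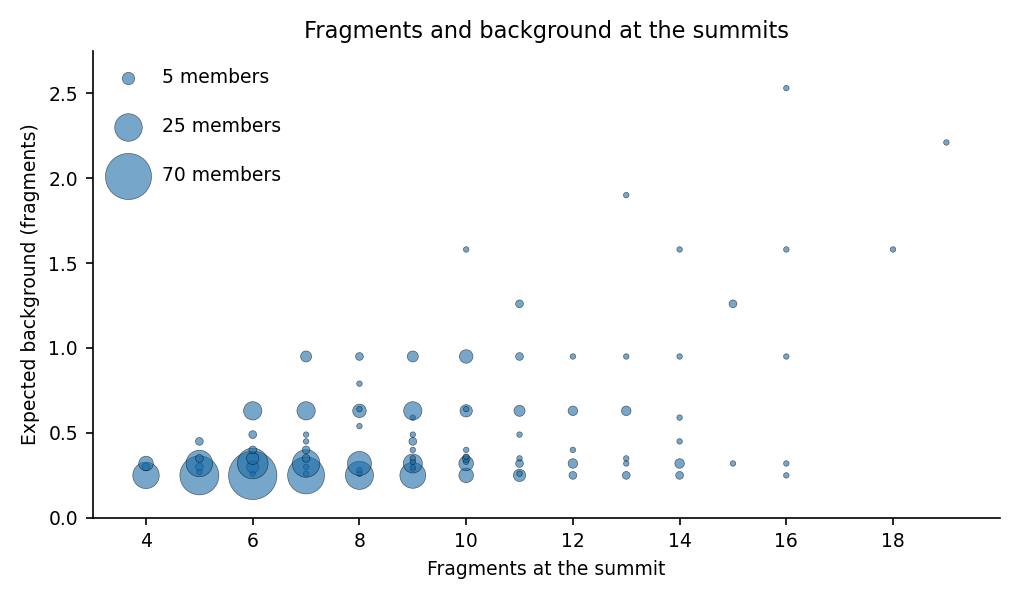
Fragments at the summit (horizontal axis) and expected background in fragments (vertical axis) of the 543 members, with the area of each circle proportional to the number of members at that point. Most members lie in rows at 0.246, 0.316 and 0.632, with 4 to 10 fragments.

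Along the stretch, 2 parts differed in value from the rest. They were noticed in these data and the differences were not tested. The first 19 members, from 26450311 to 26582586, lay to the left of the longest internal distance. They had a median background of 0.632 (0.326 to 2.53), none of them was at 0.246, and they held a median of 10 fragments (6 to 19). The other 522 members of the stretch had a median background of 0.257 and 7 fragments, and 241 of them (46.2%) were at 0.246. Summits were also farther apart in the first part, with 13.6 per 100 kb against 27.8, while the median folds were close, at 6.16 and 5.62. The first member of the stretch, at 26450216 to 26450388, had 16 fragments (9.15 to 25.98), as many as the strongest peak, but over a background of 2.53, which gave a fold of 4.82.

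A part near the right end was as dense but lower. In the 2 windows from 28.2 to 28.4 Mb, 5 of 55 members (9.09%) reached a −log10 q of 5. These windows were picked for this low count, so the difference is a description only. From 26.7 to 28.2 Mb a −log10 q of 5 was reached by 183 of 431 (42.5%), with 9 to 15 such members in each of 15 windows. The last window of the stretch, from 28.4 Mb, did not share this, with 7 of 17 members at a −log10 q of 5, a median fold of 6.08 and a median width of 330 bp. In the 2 lower windows the highest fold was 8.58 and the median fold 5.32 against 5.64, with 5.62 in the window from 28.3 Mb. The median width was 232 bp against 295 bp, and the median fragments 6 against 7. Narrow peaks were not limited to these windows: the median widths of the other 15 ran from 220 to 342 bp. The window from 28.1 Mb had 220 bp. The share at the background of 0.246 was alike, at 45.5% and 45.2%. Over the whole interval, position and fold had a Spearman's rho of −0.07 and position and width one of −0.07. Neighbours did not share their strength: the rho between the folds of neighbouring members was −0.01 over 542 pairs, and that between their widths was 0.06. These correlations are across sites of 1 library and are given as descriptions.

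No member lay in an annotated gene. RefSeq annotation of the same build (GRCh38.p14) places 8 genes wholly or partly between 26 and 29 Mb. Of the 543 peaks, 0 overlapped any of them. Over chromosomes 1 to 22 and X, 25.2% of all peaks overlapped a gene. For the 541 peaks of the stretch the lack of overlap follows from their position, where no gene is annotated. The stretch of 541 peaks lies inside the longest interval without a gene on chromosome 20, from 26251589 to 28580632 (2.33 Mb), between LOC124904967, a long noncoding RNA gene, and FRG1CP, a transcribed pseudogene of the FRG1 family. The next longest such interval, 28602666 to 29080389, measured 0.478 Mb and held 2 peaks. FRG1CP began 94.1 kb beyond the last summit of the stretch. On the left side lie NCOR1P1, a pseudogene of the nuclear receptor corepressor NCOR1, and the host gene MIR663AHG with the microRNA gene MIR663A within it. FAM182A, BSNDP3 and LOC100134868 lie farther out. Apart from FRG1CP, these genes had the single first peak as their nearest member, whose summit was 31.1 kb from MIR663AHG, 41.8 kb from NCOR1P1, 52.3 kb from MIR663A and 94.0 kb from LOC124904967.

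In the authors' deposited table, which pairs peaks with starts of genes within 50 kb, 1 of the 543 members appears, against 24.9% of the whole list. It is the single first peak, paired with NCOR1P1, whose start at 26114041 on the minus strand lies 41.8 kb from the summit. The other 542 were paired with no gene, so the table holds none of the 541 peaks of the stretch. The RefSeq genes on either side of the stretch lie more than 50 kb from it, beyond the reach of the pairing. In the dense intervals of chromosomes 6, 7 and 10 described below, 0 peaks were paired.

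The interval was set beside the most similar parts of the list and beside scattered peaks. With 1 library these are descriptions, and no difference was tested. The 2587 peaks in other windows of 1 Mb with 10 or more peaks had a median fold of 5.40, so that the ratio of medians was 1.04. The 1808 scattered peaks, in windows with fewer, had a median fold of 4.80 and a ratio of 1.17. Among peaks with a −log10 q of at least 5 the second ratio turned to 0.951. The members' median width of 280 bp compared with 241 bp in the other dense windows and 214 bp among scattered peaks. The 46 remaining peaks of chromosome 20 had a median fold of 4.66 and a median width of 203 bp, and 29 of them overlapped a gene.

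Among the dense intervals around other centromeres, that of chromosome 6 (58 to 60 Mb, 480 peaks) had a median fold of 5.73, a median width of 275.5 bp and a median of 7 fragments. Its summits were nearer to each other, with a median distance of 1850 bp against 2596.5 bp and 37.7 against 26.5 peaks per 100 kb of occupied stretch. The background differed more: 12 of its 480 peaks (2.50%, 95% interval 1.298 to 4.33) were at 0.246, against 44.8% of the chromosome 20 members, and its median background was 0.396 against 0.297. Chromosome 7 (58 to 61 Mb, 209 peaks) had 40.2% at 0.246 and a median distance of 8630 bp. Chromosome 10 (40 to 42 Mb, 217 peaks), with a median fold of 5.65, had 10.6% at 0.246 and a median distance of 3789.5 bp. As on chromosome 20, 0 peaks of these 3 intervals overlapped a RefSeq gene.

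**Figure D5:**
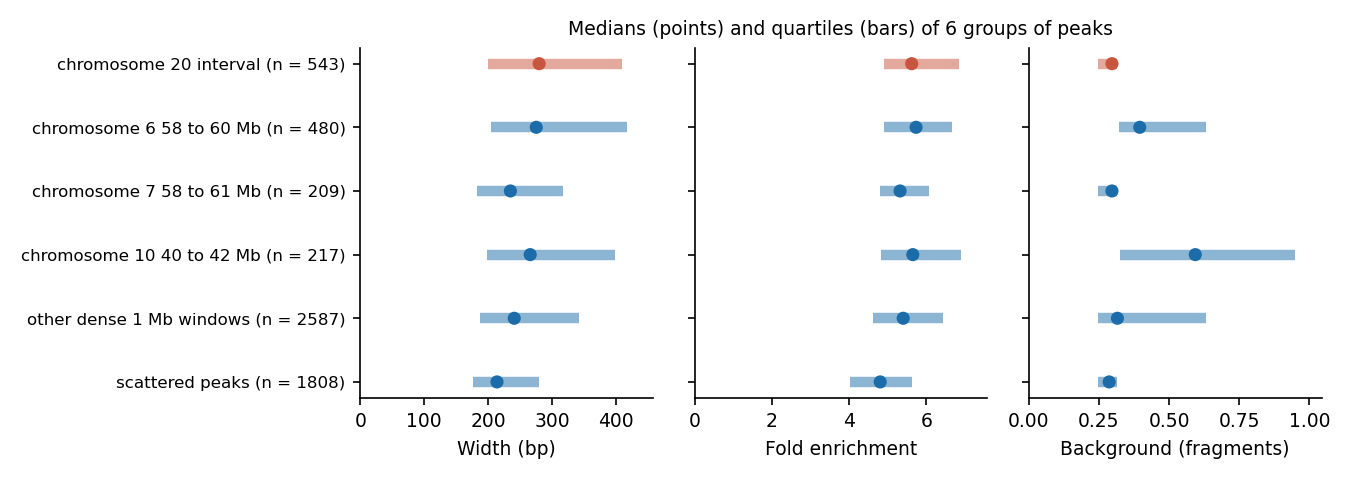
Median (points) and quartiles (bars) of width in bp, fold enrichment and expected background in fragments for the chromosome 20 members (second colour) and 5 other groups of peaks of the same list. The group of other dense windows includes peaks of chromosomes 6, 7 and 10 that are also shown separately. The median fold lies between 4.80 and 5.73 in all 6 groups, and the backgrounds of chromosomes 6 and 10 are above those of chromosome 20.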

How the data were processed

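The measurements are peaks of 1 CREB ChIP-seq library. Per the submitters' processing notes, the authors used Bowtie2 and MACS2 with build hg38. Not given in the sources used here are versions, settings, the control library and how duplicates or reads with several alignments were handled. Reads of repeated sequence can be placed on any of several copies, which can move, merge or split peaks, and this was not tested. The deposited list gives each peak a fold (a ratio), a −log10 p and a −log10 q, and a deposited score, which was 10 times the −log10 q cut to a whole number in each of 5285 peaks. Library depth is unknown.

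From these values, fragments and background at the summit were recovered, taking fold as (fragments + 1) / (background + 1) and p as a Poisson tail, with a tolerance of 0.001 on the −log10 p. This succeeded in 543 of 543 members and 5280 of 5285 peaks, and with p shuffled among peaks in 3.37%. The recovery was checked on simulated data. Positions are 1-based. Background levels were matched within 0.0005, and overlap with a gene meant 1 shared base. Intervals are exact, at 95%.

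Peaks named are the 10 highest by fold, the 5 widest, the first and last, and the ends of runs of 20 or more members. Other peaks, the genes other than NCOR1P1 and the 2 parts of the stretch were chosen with their values in view. The members and lists were chosen with earlier results of these data known. Sequence content of the peaks was planned and not run, since no genome was used here. Alternatives were a −log10 q of at least 5, peak midpoints, other windows, other gap lengths and other peak sets. Python 3.11.15, SciPy 1.17.1 and pandas 2.3.3 were used.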

Additional observations from a re-analysis of the deposited data

How the results depend on the processing

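The 541-peak stretch remained a single run with a gap of 50 kb (3 runs in all, 99.6% of members in the largest), and a gap of 5 kb gave 131 runs, the largest with 3.50%. Peaks with a −log10 q of at least 5 numbered 213 and were 97.7% of such peaks on chromosome 20. They gave 75 runs, 5.63% of members in the largest, 15 members in the densest window, a median spacing of 6245.5 bp, width of 385 bp, fold of 7.22, −log10 q of 6.91 and 9 fragments. These shifts follow in part from the choice itself, which removes low values and thins the peaks. The ratio of median fold to scattered peaks reversed, to 0.951, and the ratio to other dense windows was 1.03, as it was with dense windows of 20 or more peaks (1.03); the cause was not tested. With a fold of at least 5 the median fold was 6.42. The densest window of 50 kb held 21 members and that of 10 kb held 7. The class of summit pairs 1800 to 1899 bp apart held 3 pairs at the stricter q. The other 14 of 35 settings, peak midpoints among them, moved a count by less than 1.5 times or left a value within its interval. With peak midpoints, however, the class 1800 to 1899 bp held 21 pairs and was no longer the fullest, as another held 23. An interval from 25 to 30 Mb, windows shifted by 50 kb and the settings for the pair class were added after the data were seen. No paired analysis was possible because each group held 1 library. With a median of 7 fragments at the summit, counting error limits the ranking of single peaks.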
